A study of Homo sapiens with 12 samples.

Results

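The HNRNP and SRSF gene families encode many of the proteins that decide which exons a transcript keeps. They were read here as the 39 protein-coding rows of the gene count tables whose symbol starts with HNRNP (27 genes) or SRSF (12 genes), of 60675 genes in all. The rule itself uses only the symbol and the biotype. The counts come from MDA-MB-468 and HCC1187, 2 established cell lines of triple-negative breast cancer (tumours without oestrogen, progesterone and HER2 receptors). Both are labelled basal-like. They were transfected for 48 h with an shRNA against the long non-coding RNA SOX9-AS1 or with a control shRNA against LacZ. MDA-MB-468 was grown in DMEM and HCC1187 in RPMI-1640, so line and medium cannot be told apart. Each of the 4 groups has 3 libraries: S1 to S3 are the MDA-MB-468 controls (sh-LacZ), S4 to S6 the MDA-MB-468 knockdown (sh-SOX9-AS1), S7 to S9 the HCC1187 controls and S10 to S12 the HCC1187 knockdown. The names of the knockdown columns also hold the word BLANCO, whose meaning no label gives. The sample descriptions tie these columns to the knockdown. The labels do not tell whether the 3 libraries of a group are separate cultures, so a p-value here measures only the spread between libraries, which may be technical.

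As background, heterogeneous nuclear ribonucleoproteins (hnRNPs) coat newly made RNA and often silence the exons near which they bind. SR proteins carry a domain rich in arginine and serine, bind exonic enhancers and usually favour inclusion of the exon, so both families act on the same splice sites in opposite ways at many exons. Many genes of both families also control their own mRNA, by splicing in a poison exon that sends the transcript to nonsense-mediated decay. The GENCODE 29 annotation (GRCh38) lists at least 1 transcript of the decay type for 12 of the 12 SRSF genes (100%) and for 14 of the 27 HNRNP genes (51.9%), against 35.6% of 19951 protein-coding genes. The gene counts add all transcripts of a gene and cannot show which isoform was made.

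The promoters of 6 members on which the results turn are shown next. HNRNPA0 and SRSF1 fell most in the HCC1187 knockdown, SRSF11 and HNRNPA0 differed in response between the lines, SRSF5 and SRSF8 stood at the ends of the MDA-MB-468 range, and SRSF12 separated the controls of the lines. Each sequence is the last 150 bases before the transcription start that RefSeq gives on GRCh38.p14, read 5′ to 3′ on the strand of the gene. Capitals mark matches, on either strand, to any of 7 common promoter motifs, whose letters are given after the sequences.
HNRNPA0, chr5:137754364-137754513, minus strand: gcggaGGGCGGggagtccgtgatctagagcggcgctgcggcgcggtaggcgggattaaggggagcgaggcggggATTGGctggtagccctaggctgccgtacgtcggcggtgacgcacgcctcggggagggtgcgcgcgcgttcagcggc
SRSF1, chr17:58007247-58007396, minus strand: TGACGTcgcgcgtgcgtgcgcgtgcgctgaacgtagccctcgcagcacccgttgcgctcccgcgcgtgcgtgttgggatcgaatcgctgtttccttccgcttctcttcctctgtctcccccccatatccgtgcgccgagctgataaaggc
SRSF11, chr1:70205546-70205695, plus strand: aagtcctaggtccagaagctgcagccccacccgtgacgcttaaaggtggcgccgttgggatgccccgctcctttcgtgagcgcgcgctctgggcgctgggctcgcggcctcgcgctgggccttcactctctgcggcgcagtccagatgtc
SRSF5, chr14:69766992-69767141, plus strand: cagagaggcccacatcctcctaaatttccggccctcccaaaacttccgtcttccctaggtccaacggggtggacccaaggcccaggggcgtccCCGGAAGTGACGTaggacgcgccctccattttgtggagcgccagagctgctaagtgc
SRSF8, chr11:95066769-95066918, plus strand: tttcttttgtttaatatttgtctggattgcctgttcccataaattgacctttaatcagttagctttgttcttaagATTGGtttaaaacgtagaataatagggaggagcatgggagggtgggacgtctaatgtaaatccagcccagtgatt
SRSF12, chr6:89118072-89118221, minus strand: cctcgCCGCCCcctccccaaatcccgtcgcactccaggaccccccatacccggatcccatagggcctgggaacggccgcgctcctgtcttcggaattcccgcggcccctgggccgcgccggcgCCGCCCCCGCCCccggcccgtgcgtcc

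The capitals show a GC box and a CCAAT box in HNRNPA0, a CRE-type site in SRSF1, an ETS-type site directly followed by a CRE-type site in SRSF5, a CCAAT box in SRSF8 and 3 GC boxes in SRSF12. The SRSF11 stretch held none of these letters. RefSeq windows from 250 bases before to 50 bases after a start were at hand for 35 of the 39 members (49 windows). The CCAAT box, searched by the 5 letters of its name, stood in 51.0% of them and in 34.6% of all 35116 windows. The GC box, searched as GGGCGG, stood in 59.2% of the member windows against 45.0% of all. The palindrome CTCGCGAG was in 5 member windows, 10.2% against 1.02% of all windows. These belonged to HNRNPH3, HNRNPK, HNRNPUL1, SRSF10 and SRSF4. The E-box, searched as CACGTG, was in 16.3% of member windows against 7.26% of all. The CRE-type site, searched as TGACGT, was in 14.3% of member windows against 7.98% of all. The TATA-type box, searched as TATAAA, was in 12.2% of member windows against 11.5% of all. The ETS-type site, searched as CCGGAAG, was in 10.2% of member windows against 10.3% of all. Matches to different motifs could overlap, and in SRSF5 the ETS-type and CRE-type sites touch without sharing a base. The median GC content was 64.0% in the member windows and 58.7% in all windows. A match describes letters only, and no binding was measured.

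Only lane 1 of the 3 lanes of each library was read here, and its totals ran from 6026376 to 10160040 counts. SOX9-AS1 stood at 2.34, 1.44 and 1.76 CPM (counts scaled to a common library size, with TMM factors) in S7 to S9 and at 1.12, 0.689 and 0.796 in S10 to S12, and it fell by 1.08 ± 0.36 (SE) on the log2 scale in HCC1187 (edgeR, adjusted p = 0.0349). The MDA-MB-468 controls held 6.04, 7.24 and 6.52 CPM of it and the knockdown libraries 5.63, 5.06 and 5.51 CPM, a log2 difference of -0.30 ± 0.20 that did not pass (adjusted p = 0.417), although the groups did not overlap. SOX9, whose gene lies inside the span of SOX9-AS1, went from 14.1, 16.8 and 15.8 to 11.7, 12.5 and 8.76 CPM in HCC1187 (log2 -0.49 ± 0.16, adjusted p = 0.0256) and from 230, 202 and 180 to 152, 121 and 110 CPM in MDA-MB-468 (log2 -0.68 ± 0.14, adjusted p = 0.205). Without the library S4, the MDA-MB-468 difference was -0.32 ± 0.23 for SOX9-AS1 (adjusted p = 0.274) and -0.82 ± 0.10 for SOX9 (adjusted p = 2.03e-05). The library S4 stood apart from the other MDA-MB-468 knockdown libraries. Across genes its log2 levels correlated at 0.988 to 0.992 with the controls S1 to S3, and at 0.975 and 0.972 with S5 and S6, while S5 and S6 had 0.992 with each other. It is also the 1 library of 12 that the deposited sample table does not list, so the MDA-MB-468 calls of members are given with and without it. Of 7 basal markers, all had counts in every MDA-MB-468 library, with a summed level of 8562 to 8665 CPM in the controls, 8915 in S4 and 6479 and 6378 in S5 and S6. In HCC1187 3 to 5 of the 7 had counts, KRT6B had none in any library, and the sum was 192 to 260 CPM. EGFR made up most of the MDA-MB-468 sum (6002, 6113 and 6431 CPM in S1 to S3, 53.1, 58.4 and 54.8 in S7 to S9). FOXC1 was higher in HCC1187 (95.3, 94.1 and 72.6 CPM in S1 to S3, 175, 187 and 193 in S7 to S9), and the other 6 of the list were lower. Of 8 fibroblast, leukocyte and endothelial markers, the sum stayed between 17.4 and 72.6 CPM, with COL1A2 and CD3E at 0 in all 12 libraries. COL1A1 made up most of it, at 11.9 to 20.6 CPM in MDA-MB-468 and 45.0 to 54.6 CPM in HCC1187. COL3A1 had 0.137 to 0.336 CPM in MDA-MB-468 and 10.4 to 17.0 in HCC1187. PECAM1 had 1.68 to 5.11 CPM in MDA-MB-468 and at most 0.702 in HCC1187.

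Most members were well expressed in both lines. HNRNPCL1, HNRNPCL2, HNRNPCL3 and HNRNPCL4, copies related to HNRNPC, had 0 counts in every library, where 3 counts would be 0.295 to 0.498 CPM. HNRNPUL2-BSCL2, a readthrough of HNRNPUL2 into the next gene, had at most 3 counts. None of these 5 passed the low-count filter. SRSF12 and HNRNPA1P48 passed the low-count filter in HCC1187 and not in MDA-MB-468, which leaves 34 tested members in HCC1187 and in comparisons of the lines, and 32 in MDA-MB-468.

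Per kilobase of the deposited gene length, the leading members were several HNRNP genes and SRSF2, the nuclear speckle protein once called SC35. The order depends on that length, 22512 bases for HNRNPU and 2118 for HNRNPAB. Not divided by length, HNRNPU held 10.6% of the HNRNP sum in the MDA-MB-468 controls and HNRNPAB 5.19%. In the HCC1187 controls SRSF11 then held 15.4% of the SRSF sum and SRSF2 10.6%. In the MDA-MB-468 controls, HNRNPAB led with 241 ± 25.9 CPM per kilobase (SD, n = 3). It was followed by SRSF2 with 197 ± 6.31, HNRNPF with 182 ± 6.36 and HNRNPK with 177 ± 4.18. HNRNPF and HNRNPK differed by less than their spread, and so did the next pair, HNRNPA1 with 152 ± 9.28 and HNRNPA2B1 with 151 ± 3.08 CPM per kilobase. In the HCC1187 controls the order began with HNRNPA1 at 232 ± 7.73 CPM per kilobase, the abundant shuttling hnRNP that recognises UAG-containing silencers. HNRNPA2B1 with 150 ± 6.31 and HNRNPC with 150 ± 2.11 could not be separated, and HNRNPK followed with 135 ± 3.02. SRSF2 was again the highest SRSF gene with 91.8 ± 4.48 CPM per kilobase, ahead of SRSF7 with 56.4 ± 3.51 and SRSF5 with 54.9 ± 1.89, which lay within each other's spread.

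In HCC1187 the knockdown libraries had less RNA of 11 members, 7 HNRNP and 4 SRSF genes, and no member rose. In bulk RNA, fewer cells that express a gene and less of its RNA per cell cannot be told apart. A member was called at a Benjamini-Hochberg adjusted p under 0.05 over all 14970 genes tested. The 11 of 34 tested members compare with 22.8% of all genes called. All 11 were falls, where 13.1% of all genes fell and 9.78% rose. In all 11 every knockdown library lay below every control library. The same held for HNRNPA1, HNRNPC, HNRNPL, HNRNPLL and SRSF8, which were not called. HNRNPF and SRSF5, also not called, had every knockdown library above every control. How often libraries separated in this way over all genes was not counted. The median log2 change was -0.11 over the tested members (-0.11 for HNRNP and -0.16 for SRSF) and 0.01 over all genes.

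HNRNPA0 changed most. It encodes an hnRNP of the A/B group that binds AU-rich elements in mRNAs, from a gene on chromosome 5 (GRCh38, 137745651 to 137754376, minus strand, ENSG00000177733) that has 1 exon and overlaps no other annotated gene. Its level was 188, 193 and 207 CPM in S7 to S9 and 90.4, 86.0 and 90.0 CPM in S10 to S12. Every knockdown library lay below every control. The fall was 2.16-fold (log2 -1.11 ± 0.08, edgeR adjusted p = 5.99e-09), and it was called under all 14 alternative settings run for this value, between -1.14 and -1.05.

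SRSF1, a founding SR protein that can transform cells when overproduced, came second. Its level was 122, 150 and 113 CPM in the controls and 69.8, 78.0 and 78.0 CPM in the knockdown. The groups stayed apart although S8 was higher than the other controls, and the fall was 1.67-fold (log2 -0.74 ± 0.10, adjusted p = 1.55e-05). SRSF1 lies on chromosome 17 (58003360 to 58007346, minus strand, ENSG00000136450). Whether the authors counted reads by strand is not stated in the labels, so reads of SRSF1 and of the antisense gene in its span cannot be told apart.

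Among the other HNRNP genes, 6 fell. HNRNPUL2, an hnRNP U-like protein linked to DNA repair, went from 59.1, 66.3 and 62.2 to 35.1, 45.1 and 46.2 CPM (log2 -0.53 ± 0.10, adjusted p = 0.000711). HNRNPH1, a binder of runs of G, went from 557, 609 and 604 to 370, 465 and 427 CPM (log2 -0.46 ± 0.09, adjusted p = 0.000701). Its relative HNRNPH3 went from 235, 275 and 226 to 169, 222 and 175 CPM (log2 -0.35 ± 0.10, adjusted p = 0.0166). In HNRNPH3 the highest knockdown library, S11, nearly reached the lowest control. HNRNPR, HNRNPDL and HNRNPA3 fell by 0.33, 0.31 and 0.27 on the log2 scale. HNRNPF, which shares the G-run specificity with HNRNPH1, did not pass and stood slightly above its controls in all 3 knockdown libraries (261, 250 and 248 against 278, 275 and 282 CPM, log2 0.17 ± 0.08, adjusted p = 0.131).

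Of the SRSF genes, SRSF11, SRSF6 and SRSF10 fell besides SRSF1. SRSF11, an SR-related protein of nuclear speckles, went from 378, 434 and 397 to 271, 314 and 305 CPM (log2 -0.41 ± 0.09, adjusted p = 0.00125). SRSF6 went from 157, 147 and 146 to 105, 113 and 122 CPM (log2 -0.38 ± 0.08, adjusted p = 0.00252). SRSF10, known for turning into a general splicing repressor when dephosphorylated, had the smallest called change (312, 350 and 306 against 236, 277 and 279 CPM, log2 -0.26 ± 0.09, adjusted p = 0.0353). SRSF5 and SRSF12 had log2 changes of 0.11 ± 0.08 and 0.04 ± 0.11 and did not pass. The HNRNP genes highest per kilobase also missed the threshold: HNRNPA1 had -0.14 ± 0.09, HNRNPA2B1 -0.11 ± 0.09, HNRNPC -0.11 ± 0.08 and HNRNPK 0.03 ± 0.08.

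Only some of these calls were robust to the choice of libraries. Without S8, 6 of the 11 calls were made, and HNRNPH3, HNRNPR, HNRNPDL, HNRNPA3 and SRSF10 missed the threshold. Without S12, 7 calls were made. When all 12 libraries were fitted together, 5 were, namely HNRNPA0, SRSF1, HNRNPUL2, HNRNPH1 and SRSF6. Over all genes the calls fell too, from 3418 of 14970 to 2213 of 15341 without S8 and 2689 of 15116 without S12. The joint fit called 1499 of 16328 genes. Scaled by library totals in place of TMM, 1 member (HNRNPF) rose and 9 fell, and the share of rises among all called genes went from 42.8% to 57.7%.

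**Figure D1:**
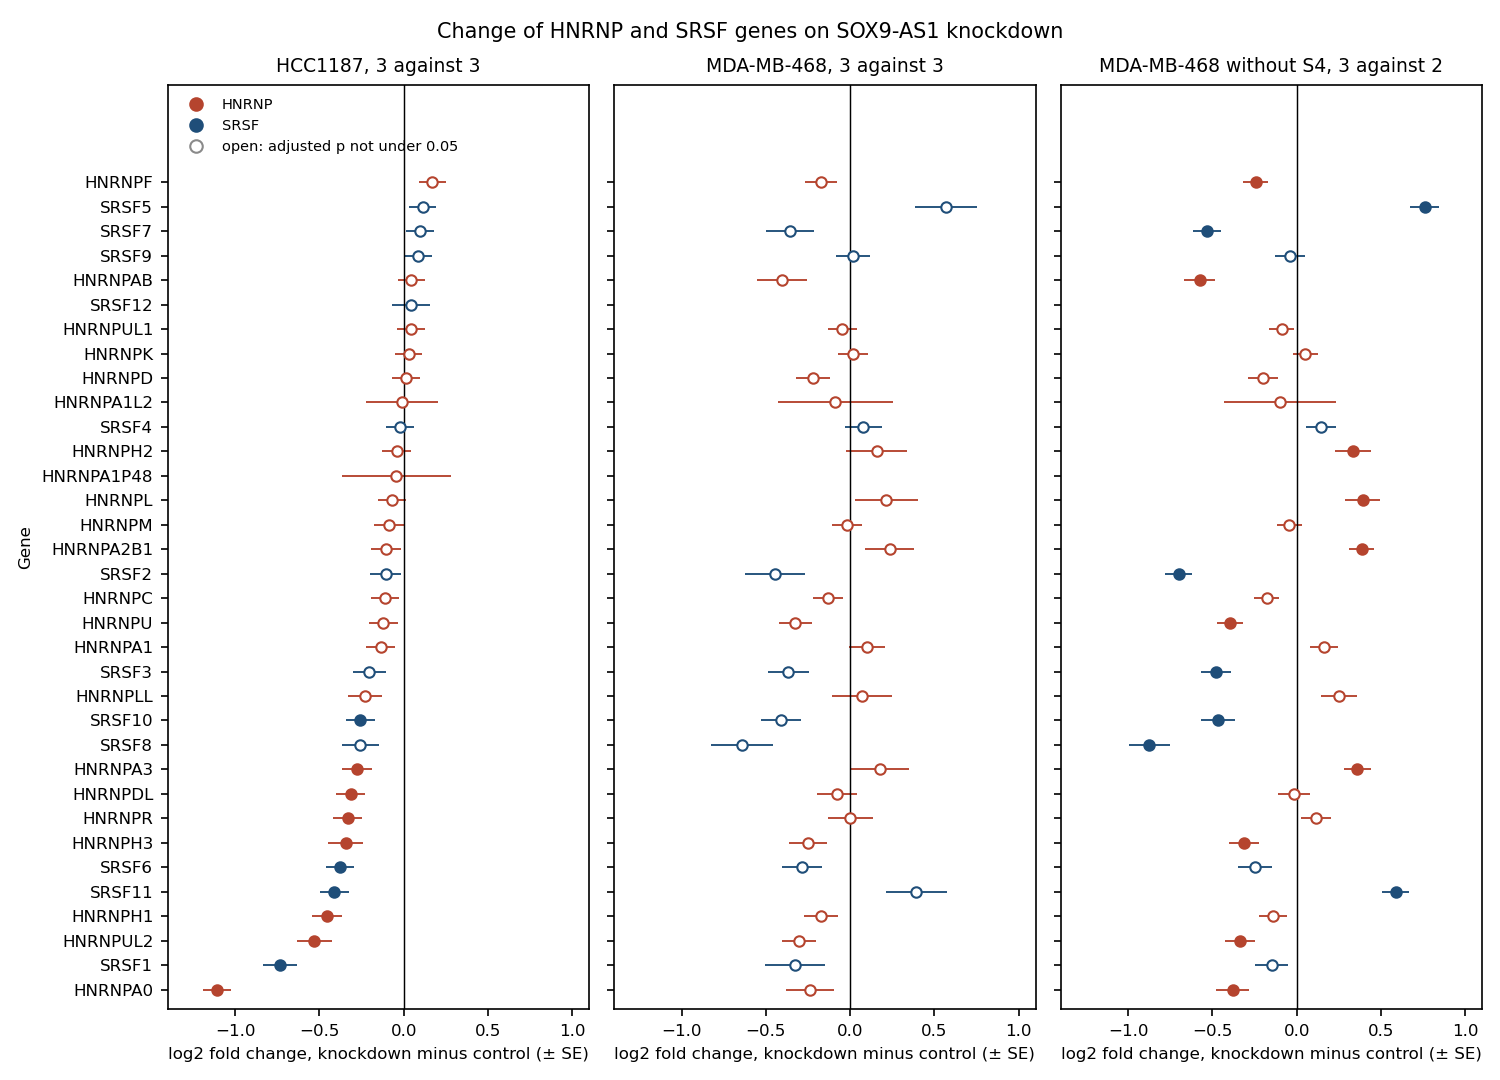
Log2 fold change of each tested member, knockdown minus control, with its SE, from edgeR, for HCC1187 (left), MDA-MB-468 with all 6 libraries (middle) and MDA-MB-468 without S4 (right). Red marks HNRNP and blue SRSF genes, and filled points passed at adjusted p under 0.05. The 11 filled points on the left are all falls, none is filled in the middle, and on the right 6 rises and 11 falls are filled.

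In MDA-MB-468 no member was called with all 6 libraries, and 17 of 32 were called without S4. With all 6 libraries edgeR called 0 of 32 members, against 0.00733% of the 13638 genes tested. Of the 32 members, 10 had an unadjusted p under 0.05, as did 2554 of the 13638 genes. DESeq2 called 0 members and 289 of the 13638 genes, and limma-voom called 0 members and 0 genes. No filter on low counts gave 5 members (SRSF2, SRSF5, SRSF8, SRSF10 and HNRNPAB) among 1441 called of 26996 genes. The fit over all 12 libraries gave 4 (SRSF5, SRSF8, SRSF10 and HNRNPU) among 887 of 16328. The members with the smallest p were SRSF8 (log2 -0.64 ± 0.18, adjusted p = 0.205), SRSF10 (-0.41 ± 0.12, adjusted p = 0.205) and HNRNPU (-0.33 ± 0.10, adjusted p = 0.206).

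Without S4, 6 members rose and 11 fell. The 17 of 32 compare with 40.7% of 13947 genes called, 20% rising and 20.7% falling. Among the HNRNP genes 4 rose and 6 fell, and among the SRSF genes 2 rose and 5 fell. The median log2 change was -0.09 for HNRNP, -0.25 for SRSF and 0.00 over all genes. These values rest on 2 knockdown libraries, in which the basal marker sum was also lower than in S4, and the part of that shift in the results was not tested. S4 was set apart partly by its likeness to the controls in these same counts. In genes where S4 lay near the controls, leaving it out widens the group difference and narrows the spread. The difference did not widen in every member. The SRSF1 change went from -0.33 with S4 to -0.15 without it, and the SRSF6 change from -0.29 to -0.25. The p-values without S4, here and below, therefore cannot be read as those of an ordinary test.

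The SR proteins moved both ways. SRSF2 read 586, 615 and 580 CPM in S1 to S3, 584 in S4, and 389 and 345 in S5 and S6. S4 lay among the controls and the other knockdown libraries far below them. Without S4 the fall was 1.62-fold (log2 -0.70 ± 0.08, adjusted p = 9.24e-06), and with it -0.45 ± 0.18 (adjusted p = 0.239). SRSF8, a copy of SRSF2, read 52.5, 58.5 and 50.9 CPM in the controls, 45.4 in S4, and 32.0 and 27.0 in S5 and S6 (log2 -0.87 ± 0.12 without S4, adjusted p = 4.23e-05).

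SRSF3 and SRSF7, the SR proteins that link splicing to mRNA export, also fell without S4, by 0.48 ± 0.09 and 0.53 ± 0.08 on the log2 scale. With S4 their changes were -0.37 ± 0.12 and -0.36 ± 0.14 (adjusted p = 0.208 and 0.240). SRSF7 read 354, 360 and 365 CPM in the controls, 349 in S4, and 237 and 262 in S5 and S6. SRSF10 fell by 0.47 ± 0.10, from 323, 314 and 259 CPM to 205 and 229 in S5 and S6, with S4 at 244.

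SRSF5 and SRSF11 rose. SRSF5, an SR protein first known as an insulin-induced gene, read 134, 143 and 153 CPM in the controls, 152 in S4, and 237 and 249 in S5 and S6. Without S4 the rise was 1.69-fold (log2 0.76 ± 0.09, adjusted p = 6.92e-06), and with it 0.57 ± 0.18 (adjusted p = 0.208). SRSF11 read 259, 233 and 231 CPM in the controls, 227 in S4, and 366 and 362 in S5 and S6 (log2 0.59 ± 0.08 without S4, adjusted p = 4.33e-05, and 0.39 ± 0.18 with it, adjusted p = 0.280). In both genes S4 sat within or just outside the control range.

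Among the HNRNP genes, HNRNPA2B1, a binder of purine-rich motifs, rose without S4 (1430, 1373 and 1399 CPM in the controls, 1291 in S4, 1761 and 1912 in S5 and S6; log2 0.39 ± 0.08, adjusted p = 0.000896). HNRNPL, which binds CA repeats, HNRNPA3 and HNRNPH2 rose by log2 0.39 ± 0.10, 0.36 ± 0.08 and 0.33 ± 0.11. With S4 the changes of HNRNPA2B1, HNRNPL, HNRNPA3 and HNRNPH2 were 0.23 ± 0.15, 0.22 ± 0.19, 0.18 ± 0.17 and 0.16 ± 0.18, with adjusted p from 0.381 to 0.633. HNRNPAB fell most (570, 498 and 463 CPM in the controls, 477 in S4, 337 and 350 in S5 and S6; log2 -0.58 ± 0.09, adjusted p = 0.000163). HNRNPU, the scaffold-attachment hnRNP, read 1070, 1066 and 1002 CPM in the controls, 924 in S4, and 771 and 822 in S5 and S6 (log2 -0.40 ± 0.08, adjusted p = 0.000891). HNRNPA0, HNRNPUL2, HNRNPH3 and HNRNPF fell by 0.38, 0.34, 0.31 and 0.24 on the log2 scale. With S4, HNRNPAB had -0.41 ± 0.15, HNRNPA0 -0.24 ± 0.14, HNRNPUL2 -0.30 ± 0.10, HNRNPH3 -0.25 ± 0.11 and HNRNPF -0.17 ± 0.10, with adjusted p from 0.208 to 0.372. HNRNPA2B1, HNRNPAB, HNRNPU and SRSF2 share part of their span with a gene on the other strand (CBX3, PHYKPL, COX20 and MFSD11 among them), and without the strand setting those reads cannot be told apart. In all, 16 of the 39 members have a gene on the opposite strand in their span.

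**Figure D2:**
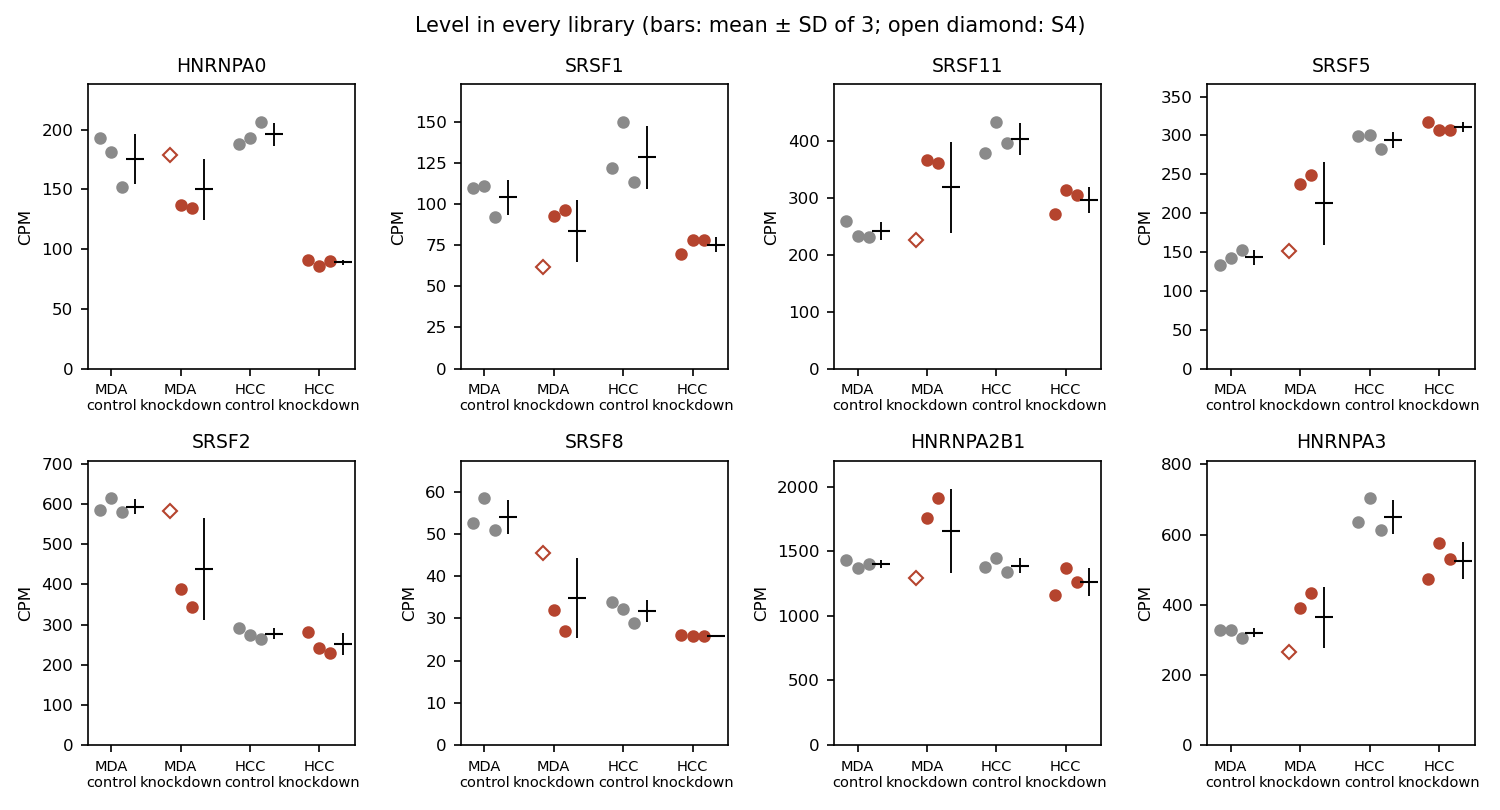
Level in CPM of 8 members in each library, with the mean ± SD of each group of 3 beside the points; grey marks controls, red knockdown, and the open diamond is S4. In HCC1187 the knockdown points lie below the controls in HNRNPA0, SRSF1, SRSF11, SRSF8 and HNRNPA3, above them in SRSF5, and overlap in SRSF2 and HNRNPA2B1. In SRSF2, SRSF5, SRSF11 and HNRNPA2B1 the S4 diamond lies near the MDA-MB-468 controls. It is the lowest MDA-MB-468 point in SRSF1, HNRNPA3, SRSF11 and HNRNPA2B1.

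Whether a response differed between the lines was tested as the interaction of line and shRNA over all 12 libraries. With all libraries 2 of 34 members passed, both lower in HCC1187, against 3.75% of 16328 genes called (1.24% higher and 2.52% lower). HNRNPA0 had a difference of -0.86 ± 0.16 on the log2 scale (adjusted p = 0.0130), between -1.11 ± 0.08 in HCC1187 and -0.24 ± 0.14 in MDA-MB-468. SRSF11 had a difference of -0.79 ± 0.21 (adjusted p = 0.0456), between -0.41 ± 0.09 and 0.39 ± 0.18. Scaled by library totals, only HNRNPA0 passed, and the share of higher calls among all genes went from 33.0% to 46.9%. Leaving out any 1 library other than S4 ended the call of SRSF11 and left that of HNRNPA0.

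Without S4, 15 of 34 members differed in response, 5 higher and 10 lower in HCC1187, against 25.6% of 16807 genes (12.4% higher and 13.2% lower). SRSF11 then had -0.997 ± 0.12 (adjusted p = 4.75e-07), HNRNPA0 -0.73 ± 0.13 (adjusted p = 0.000136), SRSF5 -0.65 ± 0.11 and SRSF1 -0.58 ± 0.15. SRSF7, HNRNPAB, SRSF8 and SRSF2 differed the other way, by 0.63 ± 0.11, 0.62 ± 0.12, 0.62 ± 0.16 and 0.59 ± 0.13. The last 4 fell in MDA-MB-468 without S4 and were not called in HCC1187. For SRSF1, S4 was not like the controls but the lowest MDA-MB-468 library, at 61.6 CPM. S1 to S3 had 110, 111 and 91.9 CPM of SRSF1, and S5 and S6 had 92.5 and 96.0. With S4 the SRSF1 difference between the lines was -0.40 ± 0.22 and did not pass (edgeR interaction, adjusted p = 0.313).

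Summed over its members, the SRSF family stood at 2670 ± 119 CPM (SD, n = 3) in the MDA-MB-468 controls and 2613 ± 98.5 in the HCC1187 controls. The HNRNP sums were 9838 ± 276 and 9396 ± 253 CPM. With TMM scaling both were lower in every HCC1187 knockdown library than in any control, at 8280 ± 542 CPM for HNRNP and 2298 ± 60.1 for SRSF. As a share of all counts the groups overlapped. HNRNP took 1.00%, 1.04% and 0.972% in S7 to S9 and 0.918%, 0.990% and 0.915% in S10 to S12, and SRSF 0.285%, 0.290% and 0.263% against 0.266%, 0.255% and 0.263%. Their ratio was 27.8% ± 0.65 in the controls and 27.8% ± 1.76 in the knockdown. In MDA-MB-468 the HNRNP sums overlapped (9650 to 10154 CPM in the controls, 9147 to 10111 in the knockdown), while the SRSF sums did not, the knockdown libraries reading 2455, 2257 and 2308 CPM. SRSF made up 27.0%, 28.2% and 26.2% of HNRNP in S1 to S3, 26.8% in S4, and 24.1% and 22.8% in S5 and S6. No test was run on these sums.

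**Figure D3:**
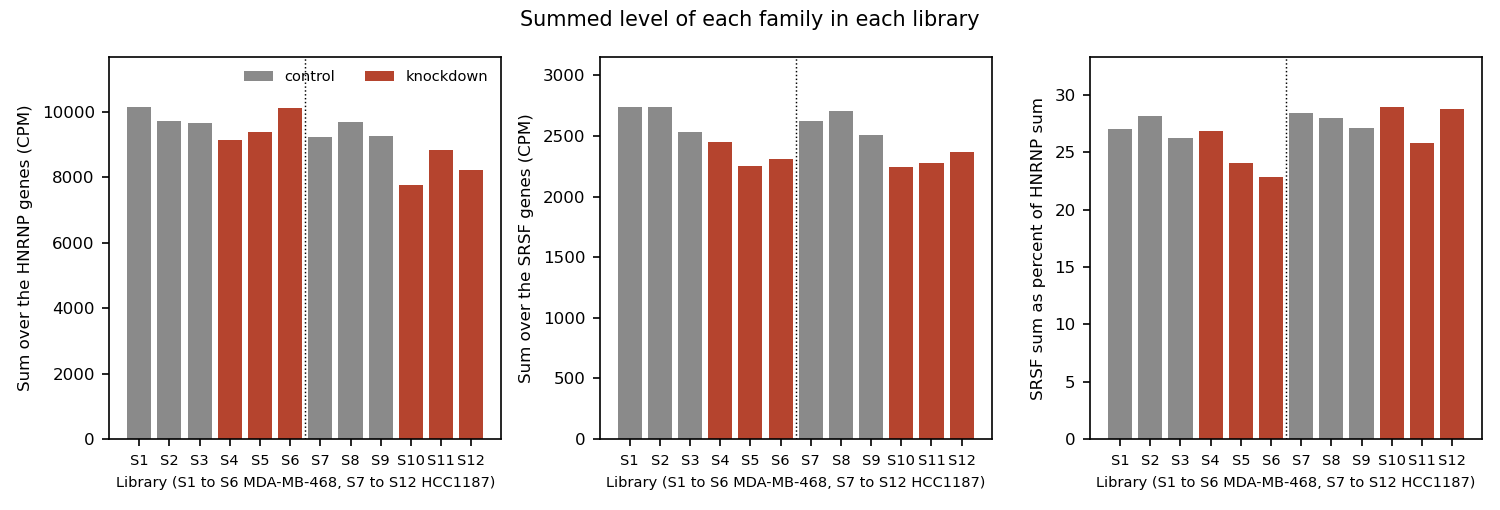
Summed CPM of the 27 HNRNP genes, of the 12 SRSF genes, and SRSF as a percent of HNRNP, in each library; grey bars are controls and red bars knockdown, with MDA-MB-468 left and HCC1187 right of the dotted line. With TMM scaling the HCC1187 knockdown bars are lower for both families, and the ratio is lowest in S5 and S6.

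Between the control libraries of the lines, 28 of 34 members differed, 12 higher and 16 lower in HCC1187. This is close to the background, since 84.1% of 15592 genes were called (43.6% higher and 40.4% lower). Of the HNRNP genes 6 were higher and 11 lower, and of the SRSF genes 6 were higher and 5 lower. The higher ones include HNRNPA1P48 and SRSF12. These passed the low-count filter through the HCC1187 libraries alone, so they could be called only as higher there. The median difference was -0.19 for HNRNP, 0.19 for SRSF and 0.06 over all genes on the log2 scale. The same limit holds for the family medians, as that of SRSF includes SRSF12 and that of HNRNP includes HNRNPA1P48. Medians without these genes were not computed. Scaling by library totals moved the median of all genes to 0.29 and that of HNRNP to 0.04. The HNRNP sign thus flips with the scaling. With library totals 17 members were higher and 10 lower, beside 7867 higher and 5326 lower of all 15592 genes.

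SRSF12 was the extreme case. It encodes an SR-like protein described as antagonising other SR proteins, from a gene on chromosome 6 (89095959 to 89118081, minus strand, ENSG00000154548). It had 7, 3 and 2 counts in S1 to S3 and 280, 278 and 293 in S7 to S9. Pooled per group, 851 counts against 12 give a ratio of 59.0 with a 95% interval of 33.6 to 115 that covers counting error only. In the HCC1187 knockdown it read 27.1, 33.0 and 29.2 CPM against 27.3, 30.7 and 30.4 in the controls, and the groups overlapped.

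Other SRSF genes were higher in HCC1187. SRSF4 read 94.7, 103 and 102 CPM in S1 to S3 and 221, 234 and 255 in S7 to S9 (log2 1.23 ± 0.08, adjusted p = 2.76e-12). SRSF5 read 134, 143 and 153 against 299, 301 and 282 CPM (log2 1.03 ± 0.07), and SRSF9 and SRSF11 differed by 0.79 ± 0.08 and 0.73 ± 0.07. SRSF2 (log2 -1.11 ± 0.07), SRSF8 (-0.78 ± 0.10), SRSF7 (-0.67 ± 0.07), SRSF3 (-0.55 ± 0.08) and SRSF6 (-0.26 ± 0.09) were lower. The SRSF6 libraries of the lines overlapped, and scaled by library totals its difference was -0.030 (adjusted p = 0.750). This comparison and the MDA-MB-468 knockdown comparison share S1 to S3, so their values are not independent.

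Among the HNRNP genes, HNRNPUL2 (-1.26 ± 0.08), HNRNPF (-1.24 ± 0.07), HNRNPAB (-1.23 ± 0.08) and HNRNPUL1 (-1.23 ± 0.07) were lower in HCC1187 on the log2 scale. HNRNPF read 610, 569 and 594 CPM in S1 to S3 and 261, 250 and 248 in S7 to S9. HNRNPA3 was 2.01-fold higher in HCC1187 (329, 327 and 305 against 636, 704 and 612 CPM, log2 1.01 ± 0.07). HNRNPC and HNRNPA1 were higher by 0.61 ± 0.07 and 0.60 ± 0.07. HNRNPA1 has 74 pseudogene rows in the tables, which held 1.24% to 2.01% of its counts. HNRNPA2B1 (-0.02 ± 0.07), HNRNPL (-0.01 ± 0.09), HNRNPU (0.02 ± 0.07), SRSF10 (0.10 ± 0.08) and HNRNPA0 (0.14 ± 0.08) did not pass. With library totals all 5 passed as higher in HCC1187, HNRNPA2B1 at 0.21 (adjusted p = 0.00578), HNRNPL at 0.22 (0.0255), HNRNPU at 0.26 (0.00132), SRSF10 at 0.33 (0.00116) and HNRNPA0 at 0.38 (0.000281). Without S1, HNRNPA0 also passed, at 0.20 (adjusted p = 0.0452).

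**Figure D4:**
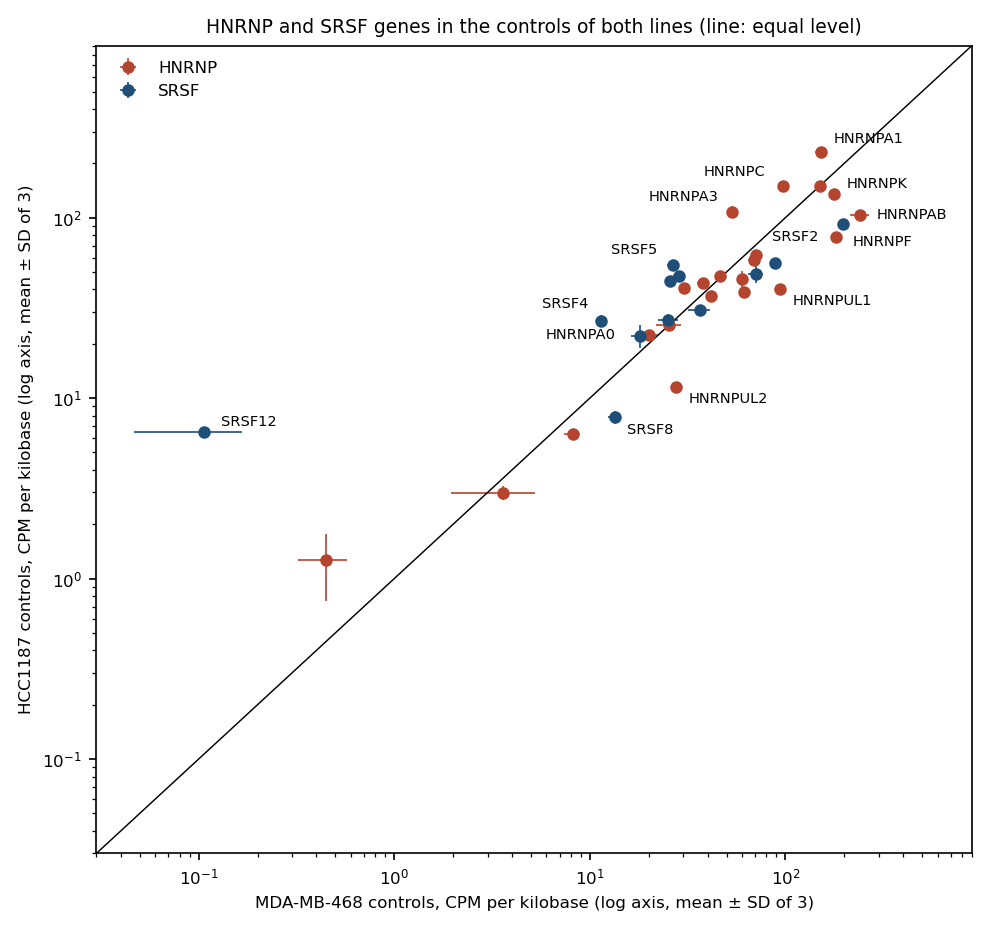
Level per kilobase of gene length in the HCC1187 controls against the MDA-MB-468 controls, mean ± SD of 3 libraries on log axes, for the 34 tested members; red marks HNRNP and blue SRSF. SRSF12 lies far above the line of equal level, at 6.50 against 0.106 CPM per kilobase, and HNRNPF, HNRNPUL1, HNRNPUL2, HNRNPAB and SRSF2 lie below it.

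Related splicing genes were read from 5 lists. In HCC1187, where 9.78% of all genes rose and 13.1% fell, of 15 regulators of tissue-specific splicing 9 fell and 0 rose, with a median log2 change of -0.31. Among them QKI read 162, 195 and 176 CPM in the controls and 87.5, 118 and 108 in the knockdown (log2 -0.73 ± 0.10, adjusted p = 1.55e-05). MBNL1 fell by 0.66 ± 0.09 on the log2 scale. Of 13 hnRNP proteins under other symbols 2 rose and 3 fell, PTBP1 falling 1.83-fold (512, 515 and 575 against 282, 289 and 285 CPM) and PTBP2, its neuronal relative, rising 2.08-fold (28.8 to 32.0 CPM in the controls against 60.1 to 62.3). Of 17 SR-related proteins and SR kinases 1 rose and 4 fell. Of 33 tested genes of the core spliceosome 3 rose and 3 fell, and of 15 genes of nonsense-mediated decay 0 rose and 1, SMG1, fell.

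In MDA-MB-468 none of the 5 lists had a called gene with all 6 libraries. Without S4, where 20% of all genes rose and 20.7% fell, core spliceosome genes had 4 rises and 13 falls of 34, and nonsense-mediated decay genes 0 rises and 8 falls of 14, UPF1 among them (487, 475 and 460 CPM in the controls, 509 in S4, 324 and 278 in S5 and S6). Of the hnRNP proteins under other symbols 0 rose and 6 fell of 12, of the tissue regulators 3 rose and 2 fell of 15, and of the SR-related proteins and kinases 4 rose and 4 fell of 17. CLK1, a kinase that phosphorylates SR proteins, read 60.1, 53.3 and 49.7 CPM in the controls, 49.1 in S4, and 111 and 111 in S5 and S6 (log2 0.73 ± 0.28 with S4, adjusted p = 0.229, and 1.02 ± 0.10 without it, adjusted p = 1.51e-06). In HCC1187 CLK1 moved the other way, from 59.8, 65.8 and 69.3 to 28.4, 43.6 and 38.9 CPM (log2 -0.78 ± 0.12, adjusted p = 4.62e-05). The difference of its response between the lines was -1.50 ± 0.33 with all 12 libraries (adjusted p = 0.0246) and -1.80 ± 0.16 without S4 (adjusted p = 6.64e-09).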

How the data were processed

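RNA was taken with TRIzol and sequenced as paired reads of 76 bases from a stranded TruSeq mRNA kit, per the labels' protocols. The authors deposited whole-number read counts per gene in 1 table for each line, with gene symbols, biotypes and lengths; the gene length (unit other) is in bases. The submitters' processing notes name HISAT2 2.1.0, featureCounts 2.0.0, SAMtools, Trimmomatic 0.39, FastQC 0.11.9 and MultiQC 1.11, and the build GRCh38. The strand setting, the annotation release and the handling of multi-mapping reads were not given in the sources used here.

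Each library has 3 lane columns, so a group has more count columns than samples. Lane 1 alone was used, and lanes were not summed. In all, 24 of the 36 count columns were not used. Columns carry a library number (S1 to S12) and no replicate number. The counts of the 2 tables were joined by gene ID over 60675 genes. Lane 1 totals of 6026376 to 10160040 counts per library set the precision, and intervals and limits of 3 counts cover counting error only. The closest libraries of a group, S1 and S2, differed by more than sampling noise (chi-square over degrees of freedom 1.90), so none was counted as a copy.

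Comparisons used the quasi-likelihood test of edgeR 4.0.16 (R 4.3.3) with TMM scaling after filterByExpr (minimum count 10, minimum total 15), fitted over all genes, with the 2 groups compared or, for the difference of responses, all 12 libraries. A call is a Benjamini-Hochberg adjusted p under 0.05. A standard error is the log2 fold change divided by the square root of F. CPM use TMM-scaled totals over all 12 libraries, and levels per kilobase divide them by the deposited gene length. Alternatives were DESeq2 1.42.0, limma-voom 3.58.1, RLE or library-total scaling, no filter, a CPM of 1 in at least 3 libraries, an adjusted p under 0.01, all 12 libraries together, and each library left out. The edgeR script was tested on simulated data. The members and lists were chosen with earlier results of these data known. Every member could be named. Values in every library were allowed for up to 6 members with the smallest p in each direction of each comparison and family, and for up to 3 per family with the highest level per length; of each related list, up to 4 genes with the smallest p. Coordinates and transcript types came from GENCODE 29 (GRCh38), in which all 39 member IDs were found, and promoter windows from RefSeq (GRCh38.p14).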

Additional observations from a re-analysis of the deposited data

Results flagged for a closer look

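The response to the knockdown differed between the lines in 2 of 34 members by the test of that difference in edgeR over all 12 libraries. Over all 16328 genes tested, 3.75% were called. HNRNPA0 had a log2 difference of -0.86 (HCC1187 minus MDA-MB-468, adjusted p = 0.0130). It fell in HCC1187, with every knockdown library below every control, and in MDA-MB-468 S4 lay at 179 CPM among controls of 193, 181 and 152 CPM while S5 and S6 lay at 137 and 134. Over its alternatives the adjusted p of HNRNPA0 ran from 1.52e-05 to 0.0467. SRSF11 had a log2 difference of -0.79 (adjusted p = 0.0456), and over its alternatives the adjusted p ran from 4.75e-07 to 0.127. It passed without S4 and missed the threshold without any other single library.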

How the results depend on the processing

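No paired analysis was possible because the count columns carry no replicate number that could be tied to the labels. Of the called changes recomputed, 2 turned direction, both between the controls with library totals and no longer called: HNRNPD to 0.041 and HNRNPH1 to 0.045. In HCC1187 the 11 called members became 7 at an adjusted p under 0.01 and 5 with all 12 libraries fitted together, and leaving out 1 library gave 6 to 11. Over all genes the 3418 calls became 1839 and 1499, and leaving out 1 library gave 2213 to 3410. In MDA-MB-468 the 0 called members became 5 with no low-count filter and 4 with all 12 libraries fitted together, and leaving out 1 library gave 0 to 17, the 17 without S4. Over all genes the 1 call became 1441 and 887, and leaving out 1 library gave 0 to 5676. For the difference of responses the 2 called members became 3 with DESeq2 (HNRNPA0, SRSF11 and HNRNPF, the last higher in HCC1187), 3 with no filter (HNRNPA0, SRSF11 and HNRNPA3), 1 with library totals, 1 with limma-voom and 0 at an adjusted p under 0.01, and leaving out 1 library gave 1 to 15, the 15 without S4. Over all genes the 613 calls for that difference became 1142, 1415, 539, 524 and 86 in the same order. Leaving out 1 library gave 129 to 4300 of them. Between the controls, 28 calls became 24 to 28 over the alternatives, and the 13108 calls over all genes became 12240 to 15987. With library totals, the HCC1187 knockdown difference of the HNRNP sum went from -0.18 to -0.094 and that of the SRSF sum from -0.18 to -0.095 on the log2 scale. The difference of the HNRNP sum between the controls went from -0.066 to 0.15 and that of the SRSF sum from -0.031 to 0.19. Members that were not called did turn. With library totals the difference between the controls became 0.21 for HNRNPA2B1 and 0.22 for HNRNPL, and with no filter HNRNPL had 0.0026. Leaving out 1 library, this difference ran from -0.052 to 0.0048 for HNRNPA2B1, -0.12 to 0.072 for HNRNPL, -0.010 to 0.054 for HNRNPU and -0.00065 to 0.14 for SRSF10. The HCC1187 knockdown change then ran from -0.047 to 0.081 for SRSF12 and from -0.023 to 0.063 for HNRNPK. For HNRNPH2 in MDA-MB-468 the change ran from -0.040 without S6 to 0.33 without S4. The cause of the changes was not tested, except that a stricter threshold removes calls by construction. Depth limits HNRNPA1P48 and HNRNPA1L2, whose few counts gave standard errors of 0.32 and 0.22 in HCC1187.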
